A study of Homo sapiens with 21 samples.

Results

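Silencing of ARID1A on a background of low ARID1B was examined in SK-N-BE(2) cells by setting the 3 libraries labelled shARID1A.2 against the 3 labelled shARID1A/B.4.2, which is 6 of the 21 RNA-Seq libraries of the series. The established line SK-N-BE(2) comes from a human neuroblastoma and carries amplified MYCN. Cells of all 7 conditions received lentiviral particles and were collected 72 h later, each condition in 3 libraries that the labels describe as biological triplicates. Beside a control there were 2 conditions labelled for ARID1A alone (shARID1A.2 and shARID1A.4), 2 for ARID1B alone (shARID1B.2 and shARID1B.3) and 2 for both genes (shARID1A/B.2.3 and shARID1A/B.4.2), where sh stands for a short hairpin RNA. Per the labels, the first condition of the pair was silenced for ARID1A, and the second for ARID1A and ARID1B. Nothing in the sources used here says whether the triplicates were transduced separately, so p-values measure the spread between these libraries.

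The pair was chosen by measured levels and not by the labels. ARID1B transcripts were low in both conditions and ARID1A transcripts were low only in the libraries labelled shARID1A.2, so the difference is between low and near-control ARID1A with ARID1B low. By their labels the conditions of the pair also differ in their shRNAs. A difference between them therefore cannot be assigned to the ARID1A level rather than to the shRNA. The partner was chosen from differences between shRNAs that recur across the groups. Levels of ARID1A and ARID1B are therefore given as a description with no test.

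ARID1A and ARID1B are mutually exclusive DNA-binding subunits of the BAF chromatin remodelling complex, the SWI/SNF variant that opens chromatin mainly at enhancers. Each BAF complex holds 1 of them, and loss of either is partly compensated by the other. In neuroblastoma, a tumour of sympathetic nervous system precursors, enhancers of this kind drive the adrenergic identity genes, and cells can also take up a more mesenchymal state.

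The value used throughout is the deposited normalised read count, the reads on a gene divided by 1 size factor per library. ARID1A (chromosome 1, 26693236 to 26782110, GRCh38) had 2169, 2160 and 2109 in the libraries labelled shARID1A.2. The libraries labelled shARID1A/B.4.2 gave 5589, 5352 and 5379 for the same gene, and the control mean was 6312 ± 191 (SD, n = 3). The mean was thus 34% of the control in the first condition and 86.2% in the second. ARID1B (chromosome 6, 156776020 to 157210779) had 2252, 2249 and 2224 in the first and 1886, 1881 and 1955 in the second, against 5796 in the control. The label shARID1A/B.4.2 goes against the measured ARID1A, and the label shARID1A.2 goes against the measured ARID1B, so conditions are called by their labels throughout. The same held group by group: both shARID1A conditions were low in both genes, both shARID1A/B conditions were low in ARID1B only, and both shARID1B conditions were low in ARID1A only. Whether labels were exchanged between groups is not known, and the silencing each name stands for is uncertain to that extent. ARID1B was 1.18 times as high in shARID1A.2 as in shARID1A/B.4.2, so the pair is not matched exactly for it.

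Depth was 28558500 to 38004732 recovered reads in the shARID1A.2 libraries and 33361302 to 40905514 in the shARID1A/B.4.2 libraries. Replicates differed by more than sampling noise in every condition (chi-square divided by its degrees of freedom, 1.54 to 3.99). The line's adrenergic and neuroendocrine markers were present: the summed value of 10 such genes was 166898 to 171766 in shARID1A.2 and 171661 to 181894 in shARID1A/B.4.2. A large part of both sums came from MYCN, which is amplified in this line and had a mean of 89220 over the 6 libraries. The sum of 12 immune, endothelial, Schwann cell and fibroblast markers was 6911 to 7478 and 9341 to 9823, respectively. Most of that sum came from the fibroblast genes DCN and LUM, without which it was 225 to 278 and 354 to 377. SOX10, which defines Schwann cells, was listed at 0 in all 6 libraries, and the part of these other markers in the results was not tested.

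Expression differed between the conditions in 53.5% of the genes tested, mostly by little. Of 18582 genes tested, leaving out the silenced genes themselves, 5042 were higher in shARID1A.2 (27.1% of the genes tested) and 4901 were lower (26.4%) at an adjusted p below 0.05 in limma. Genes that differed by more than 1 log2 unit numbered 438 on the higher side (2.36%) and 515 on the lower side (2.77%). The 3 and 3 libraries did not overlap in 11291 genes (60.8%). The median log2 difference of all genes was 0.03. In bulk RNA, fewer cells that express a gene and less RNA per cell cannot be told apart. Of 14402 protein-coding genes tested, 312 (2.17%) were higher and 409 (2.84%) were lower by more than 1 log2 unit. Of 2762 long non-coding RNAs tested, 93 (3.37%) were higher and 74 (2.68%) were lower by as much.

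**Figure D1:**
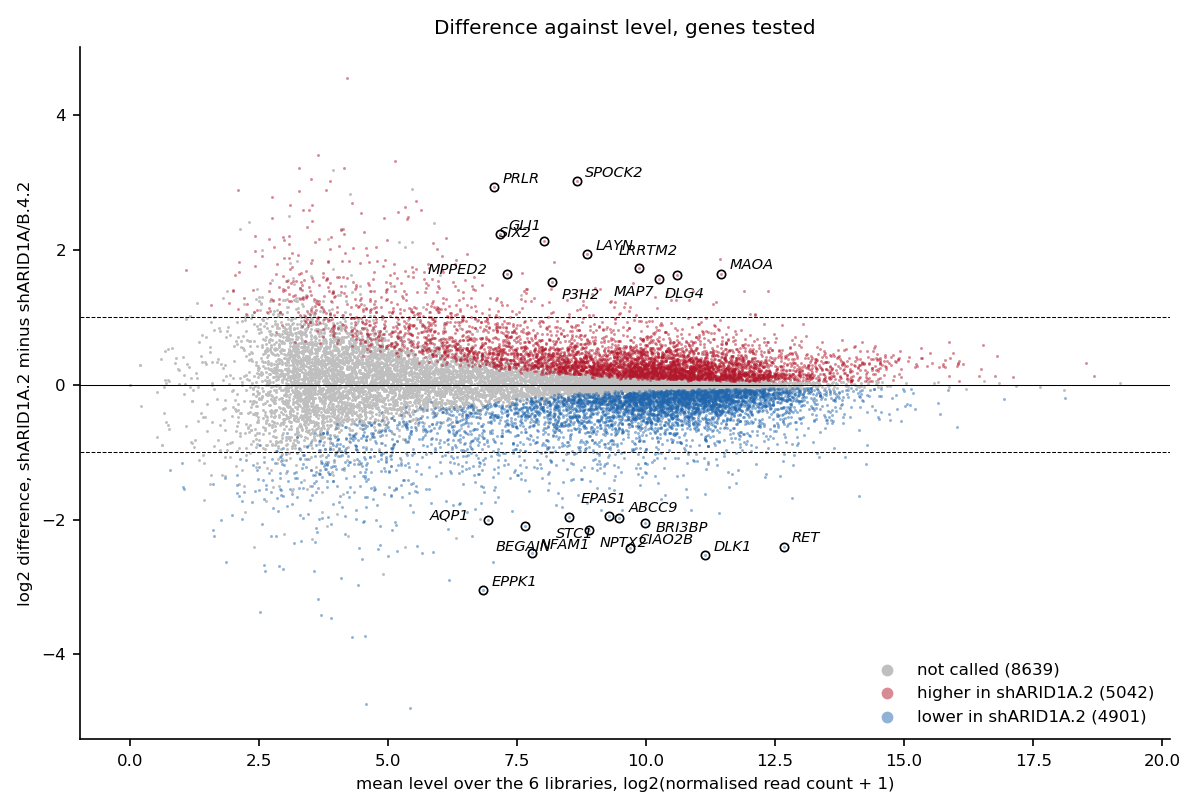
Each point is 1 of 18582 genes, with its mean level over the 6 libraries on the x axis (log2 of the normalised read count plus 1) and its log2 difference, shARID1A.2 minus shARID1A/B.4.2, on the y axis. Red points are the 5042 genes called higher, blue points the 4901 called lower, and circles mark the named genes among the 12 largest differences in each direction, of protein-coding genes with a mean of at least 100. Most called genes lie between the dashed lines at 1 and -1.

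The largest falls with a mean value of at least 100 were in EPPK1, DLK1, NFAM1, CIAO2B, RET, NPTX2, BEGAIN, BRI3BP, AQP1, ABCC9, STC1 and EPAS1. Their means in shARID1A.2 were 0.116 to 0.26 times those in shARID1A/B.4.2. Among the 12 largest rises were SPOCK2, PRLR, GLI1, SIX2, LAYN, LRRTM2, MAOA, MPPED2, DLG4, MAP7 and P3H2, with ratios of 2.89 to 8.12. These 24 genes were ranked on the difference itself, so their size is a description.

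Other libraries were set beside the pair. The shARID1A.4 and shARID1A/B.2.3 libraries differ in ARID1A in the same way, with means of 2244 ± 74.8 and 5659 ± 130 (SD, n = 3 each), and they share no library with the pair. Their ARID1B means were 3100 and 2599. ARID1A was also low in the libraries labelled shARID1B.2 (1920 ± 40.2) and shARID1B.3 (2479 ± 28.5), where ARID1B, against the labels, was near the control level, with means of 5004 and 6091. These last comparisons share the control libraries with each other but none with the pair. Differences between shRNAs across the groups entered the choice of the pair, so what it shares with these libraries is a description and not independent support.

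RET, the receptor tyrosine kinase for GDNF-family ligands and a known neuroblastoma gene, was lower in each of these comparisons. RET (chromosome 10, 43077027 to 43130351) was at 2049, 2076 and 2071 in shARID1A.2 and at 10759, 11058 and 10921 in shARID1A/B.4.2. The groups are far apart, and all 6 values lie below the control mean of 30665. The log2 difference was -2.40 (SE 0.025, adjusted p = 2.79e-27 in limma). It was -2.26 between shARID1A.4 and shARID1A/B.2.3 (adjusted p = 1.08e-26), and -2.60 and -1.71 in shARID1B.2 and shARID1B.3 against the control. At the other end, SIX2, a homeodomain transcription factor, rose in the pair and in shARID1A.4. SIX2 (chromosome 2, 45005161 to 45009430) had 453, 404 and 417 in shARID1A.2 against 92.9, 88.1 and 108 in shARID1A/B.4.2. The log2 difference was 2.13 (SE 0.114, adjusted p = 6.48e-14 in limma) and 1.97 between shARID1A.4 and shARID1A/B.2.3 (adjusted p = 2.83e-13). Against the control it was 2.22 in shARID1B.2 (adjusted p = 1.09e-14) and -0.03 in shARID1B.3 (adjusted p = 0.846).

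The sequence just before the start of these genes is shown because RET fell and SIX2 rose in both pairs of conditions. Each stretch runs from 250 to 51 bases before the RefSeq start in GRCh38.p14, 5′ to 3′ on the strand of the gene, and capitals mark the GC box letters GGGCGG or, on the other strand, CCGCCC. RET has 3 such matches at chr10:43076819-43077018 (plus strand) and SIX2 has 2 at chr2:45009503-45009702 (minus strand). The same letters occur in 35% of 35116 RefSeq promoter windows of this length, and a match is a description and not a binding site.
RET: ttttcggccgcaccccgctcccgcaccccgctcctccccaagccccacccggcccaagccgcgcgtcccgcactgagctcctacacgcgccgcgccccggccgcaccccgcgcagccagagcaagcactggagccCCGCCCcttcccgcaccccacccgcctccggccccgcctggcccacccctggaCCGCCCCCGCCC
SIX2: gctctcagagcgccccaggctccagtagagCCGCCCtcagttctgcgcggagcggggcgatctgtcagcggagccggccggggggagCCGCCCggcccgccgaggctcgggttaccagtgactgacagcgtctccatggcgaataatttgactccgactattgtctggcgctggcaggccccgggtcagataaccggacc

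**Figure D2:**
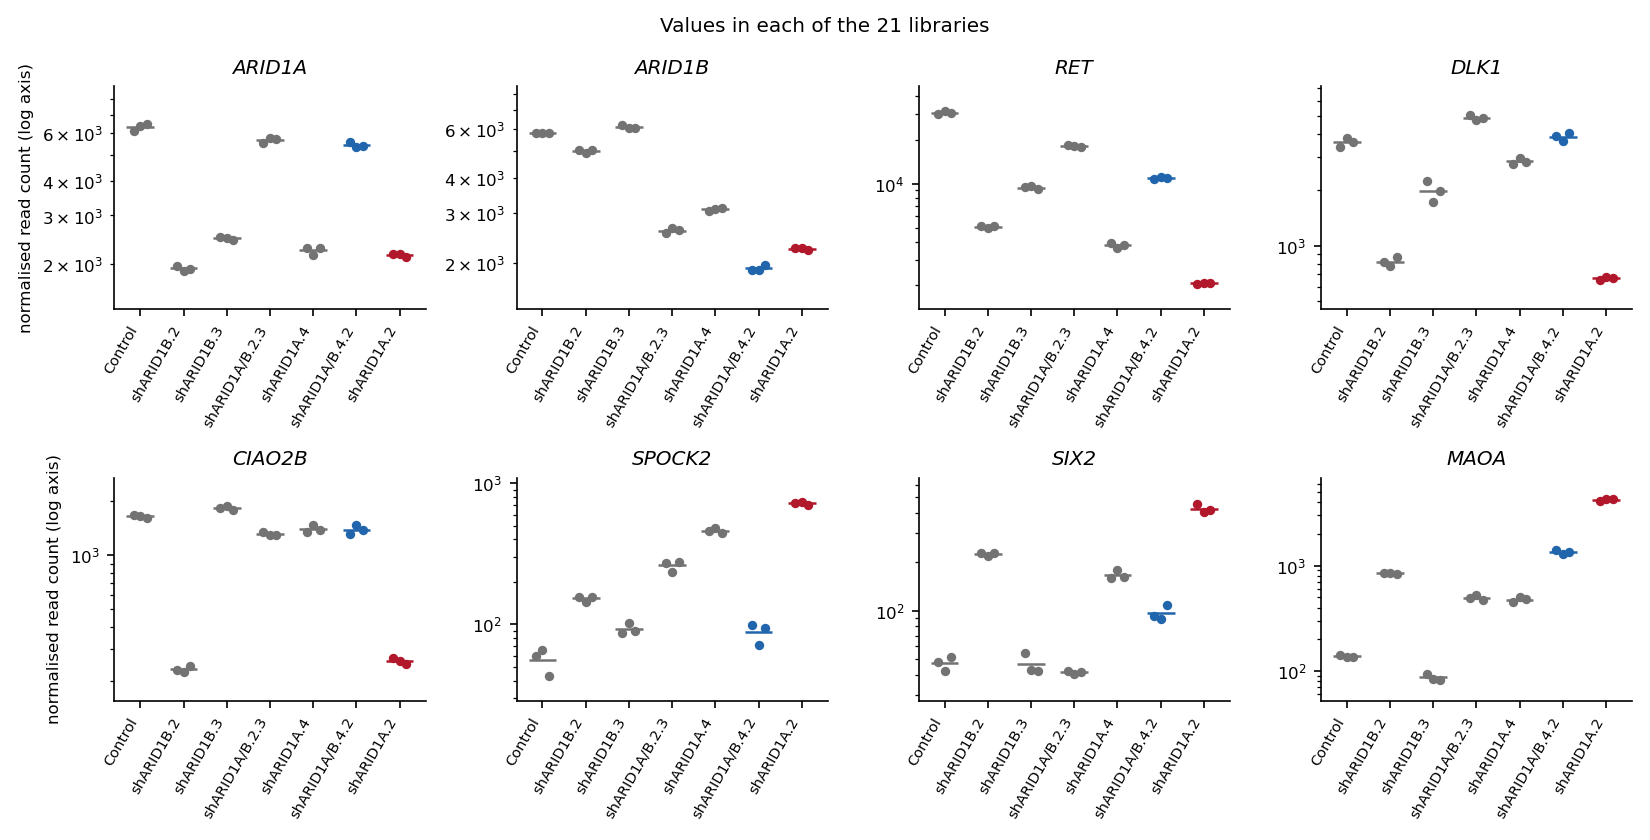
Normalised read counts (log axis) of 8 genes in each of the 21 libraries, with a bar at the mean of each condition; shARID1A.2 is red and shARID1A/B.4.2 is blue. ARID1A is low in red and near the control in blue, RET is lower in each condition with low ARID1A than in the condition it was compared with, and CIAO2B is low only in shARID1A.2 and shARID1B.2 among the conditions plotted.

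Of the 12 largest falls, 9 were also lower in shARID1A.4 than in shARID1A/B.2.3, where 26.6% of the genes tested were called lower, 1 was higher and 2 did not pass. EPPK1, an epiplakin that binds intermediate filaments, was at 22.4, 22.7 and 25.6 in shARID1A.2 and at 164, 216 and 231 in shARID1A/B.4.2. Its log2 difference was -3.05 (SE 0.191), with -2.62 in the shARID1A.4 comparison and -2.04 and -1.65 in shARID1B.2 and shARID1B.3. AQP1, a water channel, fell by 2.01 on the log2 scale in the pair and by 2.70 in the shARID1A.4 comparison. DLK1, a Notch-related membrane protein of immature neuroendocrine cells, was at 654, 679 and 672 against 3891, 3650 and 4027. DLK1 differed by -2.53 in the pair (SE 0.061, adjusted p = 1.85e-20 in limma), by -0.78 in the shARID1A.4 comparison, and by -2.14 and -0.88 in shARID1B.2 and shARID1B.3.

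CIAO2B, BRI3BP and EPAS1 behaved otherwise. CIAO2B, which takes part in iron-sulphur cluster assembly, was at 268, 259 and 247 in shARID1A.2 and at 1312, 1474 and 1387 in shARID1A/B.4.2, a log2 difference of -2.43 (SE 0.046). The shARID1A.4 comparison gave 0.09 (adjusted p = 0.0863), shARID1B.2 against the control gave -2.84, and shARID1B.3 gave 0.15. BRI3BP showed the same order, with -2.06 in the pair, 0.00 in the shARID1A.4 comparison, -2.44 in shARID1B.2 and -0.09 in shARID1B.3. EPAS1, which encodes the hypoxia-inducible factor HIF-2alpha, fell by 1.94 on the log2 scale in the pair and was higher by 0.46 in shARID1A.4 than in shARID1A/B.2.3 (adjusted p = 0.000166 in limma). Since differences between shRNAs chose the pair, the contrast between shARID1B.2 and shARID1B.3 was not tested.

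Of the 12 largest rises, 4 were also higher in the shARID1A.4 comparison, where 28.9% of the genes tested were called higher, 4 were lower and 4 did not pass. SPOCK2, a matrix proteoglycan, was at 720, 733 and 706 in shARID1A.2 and at 99.3, 71.8 and 94.6 in shARID1A/B.4.2. It was higher by 3.02 log2 units in the pair (SE 0.125, adjusted p = 5.34e-16 in limma) and by 0.82 in the shARID1A.4 comparison. GLI1, the transcriptional effector and target of Hedgehog signalling, was at 228, 233 and 252 against 50.1, 59.5 and 41.2. Its log2 difference was 2.23 in the pair, 1.21 in the shARID1A.4 comparison, and 1.89 and 0.86 in shARID1B.2 and shARID1B.3. DLG4, the postsynaptic scaffold PSD-95, was the fourth gene that rose in both pairs, by 1.63 and 0.41.

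MAOA and PRLR rose in the pair but not in shARID1A.4. MAOA, the monoamine oxidase that degrades noradrenaline and serotonin, was at 4113, 4325 and 4264 in shARID1A.2 and at 1420, 1281 and 1344 in shARID1A/B.4.2. All 6 values are above the control mean of 138. The log2 difference of 1.65 (SE 0.056) compares with -0.06 in the shARID1A.4 comparison (adjusted p = 0.366), 2.60 in shARID1B.2 and -0.67 in shARID1B.3. PRLR, the prolactin receptor, was at 212, 262 and 226 against 34.6, 23.2 and 31.8, and its difference was 2.94 in the pair and -0.75 in the shARID1A.4 comparison (adjusted p = 0.044).

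**Figure D3:**
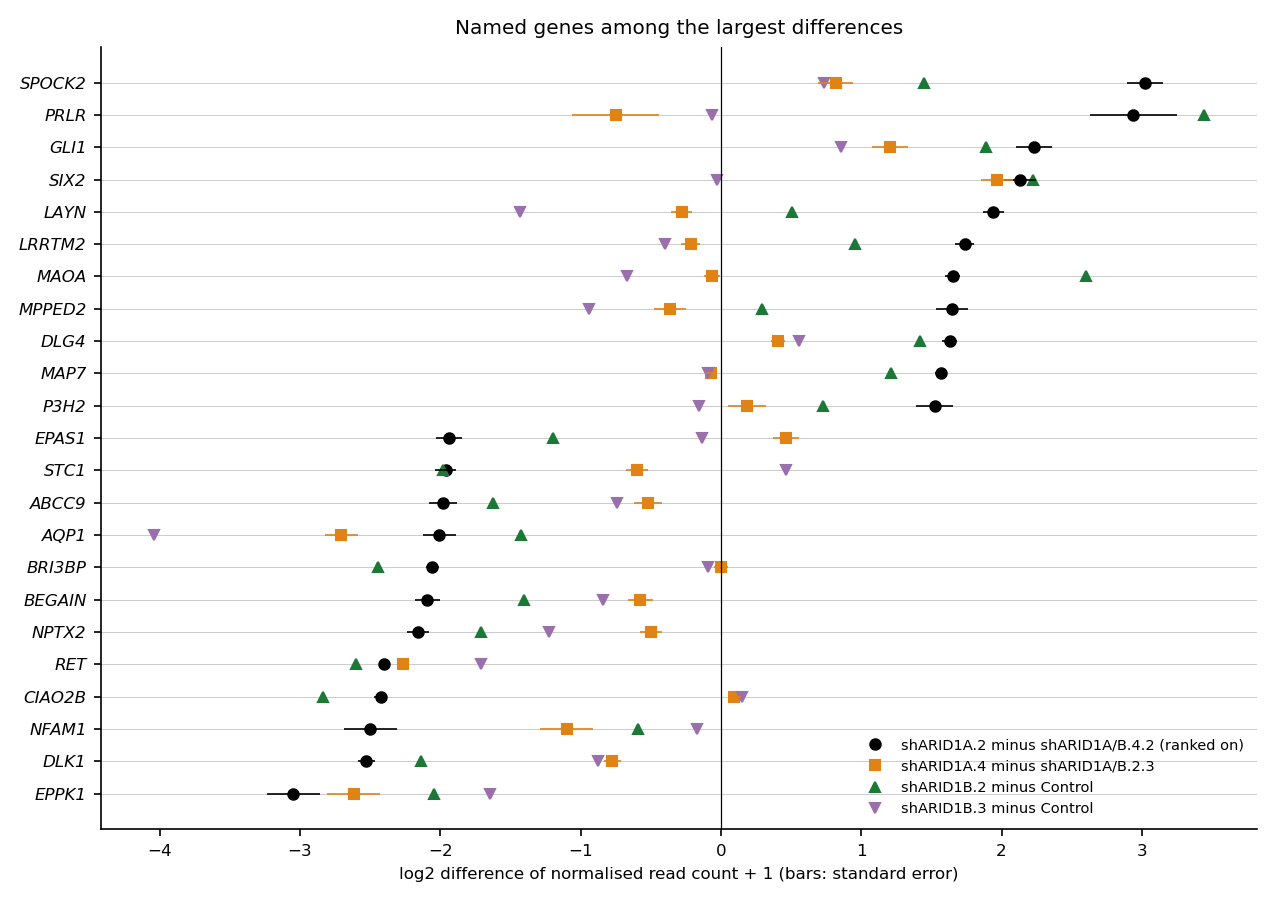
Log2 differences of the named genes among the 24 with the largest changes in the pair (black), with the shARID1A.4 comparison (orange) and shARID1B.2 (green) and shARID1B.3 (purple) against the control; bars on black and orange points are standard errors. RET, EPPK1, AQP1 and GLI1 lie on the same side of 0 in all 4 comparisons, whereas CIAO2B and BRI3BP are near 0 in the shARID1A.4 comparison and in shARID1B.3.

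Across all genes the sharing was partial. Of the 5042 genes higher in the pair, 2170 (43%) were also higher in the shARID1A.4 comparison, against 28.9% of the genes tested, and they make up 40.4% of the genes called higher there. Of the 4901 lower genes, 2177 (44.4%) were also lower, against a background of 26.6%, and these were 44% of the lower genes of that comparison. Of the higher genes 1141 (22.6%) were called lower there, against 26.6% of the genes tested. Of the lower genes 1219 (24.9%) were called higher, against 28.9%. Among falls of more than 1 log2 unit, 275 of 515 (53.4%) were also lower in the shARID1A.4 comparison, against 26.6% of the genes tested. Among such rises 147 of 438 (33.6%) were also higher, which is closer to the 28.9% of the genes tested. Fewer were called the other way there: 39 of these rises (8.9%) were lower, against 26.6% of the genes tested. Of these falls 43 (8.35%) were higher, against 28.9%. The correlation of the log2 differences across the 18582 genes, which are not independent of each other, was 0.29.

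The same was asked of the conditions in which ARID1A was low and ARID1B near the control level. Against the control, the mean of shARID1B.2 and shARID1B.3 was higher in 5566 genes (30%) and lower in 6405 (34.5%). Of the genes lower in the pair, 3339 (68.1%) were lower there as well, and of the higher genes 2661 (52.8%). As a share of the genes called against the control, these were 52.1% and 47.8%. A set of 1649 genes was higher and 1874 genes were lower in the pair, in the shARID1A.4 comparison and in the mean of both shARID1B conditions. They were 32.7% of the higher and 38.2% of the lower genes of the pair. The share of all genes tested that both other comparisons called the same way was not counted, so these overlaps are a description. The correlation across genes was 0.57 with shARID1B.2 and 0.21 with shARID1B.3. Of the 9943 genes called in the pair, 6713 were called the same way in shARID1B.2 alone and 4455 in shARID1B.3 alone. Of all genes tested, 31.6% were called higher and 34% lower in shARID1B.2, and 31.9% and 32% in shARID1B.3.

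The difference at low ARID1B, in the pair, was tested directly against the difference with ARID1B near the control level, in the shARID1B conditions. By their labels these conditions also differ in their shRNAs. The test therefore cannot tell the ARID1B level from the shRNA, and its counts are not an answer on ARID1B alone. The pair's difference departed from the mean shARID1B difference in 8607 genes (46.3%), being higher in 4946 (26.6%) and lower in 3661 (19.7%). The count was 8401 against shARID1B.2 alone and 10345 against shARID1B.3 alone. For genes ranked on the pair's own difference no such test is given, since the ranking favours a larger value in the pair. RET fell by 2.40 on the log2 scale in the pair, which lies between its differences of -2.60 in shARID1B.2 and -1.71 in shARID1B.3. SPOCK2 was higher by 3.02 in the pair, against 1.45 in shARID1B.2 and 0.74 in shARID1B.3.

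Over all genes tested, 27.1% were higher and 26.4% lower in the pair, and 28.9% and 26.6% in the shARID1A.4 comparison. The counts of each list below are to be read beside these shares. Genes of cell division were mostly lower in the pair, by small amounts. Of 36 DNA replication genes, 24 were lower and 6 higher, with a median log2 difference of -0.18. PCNA, the sliding clamp of DNA polymerases, was at 2662, 2718 and 2638 in shARID1A.2 and at 4351, 4356 and 4416 in shARID1A/B.4.2, a difference of -0.71 (SE 0.026, adjusted p = 4.81e-17 in limma). RRM2, the ribonucleotide reductase subunit that limits nucleotide supply, fell by 0.69 on the log2 scale and FEN1, the flap endonuclease, by 0.53. Of 30 mitotic genes, 20 were lower and 5 higher, with a median of -0.19. CDC20, an activator of the anaphase-promoting complex, fell by 0.43 on the log2 scale, AURKA by 0.41 and PLK1, a mitotic kinase, by 0.38. In the shARID1A.4 comparison 17 replication genes were higher and 8 lower, and 17 mitotic genes were higher and 3 lower, with medians of 0.09 and 0.11. Of the mitotic genes called in the pair, 14 were called in the opposite direction there.

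CCND1, which encodes cyclin D1, had the largest fall among the G1 cyclin, E2F and RB genes. CCND1 was at 12208, 12057 and 12111 against 26111, 28612 and 27159, a log2 difference of -1.17 (SE 0.029, adjusted p = 3.25e-20 in limma), and at -0.02 in the shARID1A.4 comparison (adjusted p = 0.545). Its control mean was 39739. CCNE2 fell by 0.93, E2F7 by 0.52 and CCND3 by 0.34 on the log2 scale, whereas CCNE1, E2F5 and CDK6 were higher by 0.56, 0.51 and 0.31. Over the 20 genes tested, 12 were lower and 3 higher. In the shARID1A.4 comparison 3 were lower and 8 higher. There 4 genes were called the other way from the pair, among them E2F7 (0.28) and E2F5 (-0.56). Of 7 CDK inhibitors, CDKN1C, CDKN2A and CDKN1A were lower and CDKN1B was higher by 0.20. Values for CDKN1A, named after they were seen, were low, at 32.4, 30.9 and 42.3 against 41.9, 47.1 and 44.0 (-0.34, adjusted p = 0.0441 in limma), and the call was lost with edgeR (adjusted p = 0.0859) and DESeq2 (adjusted p = 0.171).

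Integrins, the heterodimeric receptors of the extracellular matrix, were lower in 11 of 21 tested, with a median of -0.38, and the other 10 did not pass. ITGB1, the beta subunit shared by many integrins, was at 8571, 9124 and 8667 against 16565, 16958 and 16896, a log2 difference of -0.94 (SE 0.025, adjusted p = 1.9e-19 in limma). ITGA6, a laminin receptor subunit, was at 149, 150 and 145 against 424, 416 and 386 (-1.46, SE 0.101). ITGB3, ITGA4, ITGA5, ITGA9, ITGAV, ITGA3, ITGA11, ITGAE and ITGA1 were the others that fell. In the shARID1A.4 comparison 12 integrins were lower and 4 higher, and 9 of the 11 were lower in both, but ITGB1 was higher there by 0.07 (adjusted p = 0.0201). Integrins, cadherins, mesenchymal regulators and the genes of cell division are groups that the study itself took from these samples. Their counts are therefore not independent evidence of a direction.

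Of 15 cadherins tested, 8 were lower and 1 higher, with a median of -0.39. CDH24 was at 1872, 1757 and 1834 against 5111, 4960 and 4985, and it fell by 1.46 on the log2 scale in the pair and by 1.18 in the shARID1A.4 comparison. CDH11 fell by 0.58 and CDH2, the N-cadherin of neural cells, by 0.13, while CDH7 rose by 1.40. Matrix genes went both ways, with 12 of 38 higher (31.6%) and 14 lower (36.8%), against 27.1% and 26.4% of all genes tested. LAMC1, the laminin gamma-1 chain, was at 6611, 6920 and 6631 against 13922, 14268 and 14044 (-1.07, SE 0.021), and TNC, LOXL2 and LAMA5 fell as well. COL1A1, COL3A1 and COL4A2 were higher by 0.73, 0.69 and 0.64, and LOX by 1.28. In the shARID1A.4 comparison 24 of these genes were lower and 6 higher, and the 3 collagens just named were lower there by 0.42, 0.59 and 0.24. The median of the matrix genes in the pair was -0.02 and turned to 0.00 with upper-quartile scaling, so no direction is given for the group.

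Mesenchymal-state regulators split, with 3 of 16 higher and 6 lower. VIM, the intermediate filament vimentin, and TWIST1 were higher by 0.39 and 0.32, and SNAI1 and FOSL2 were lower by 0.83 and 0.50 on the log2 scale. Targets of YAP and TEAD, the Hippo pathway factors, were lower in 12 and higher in 4 of 21, with a median of -0.39. ANKRD1, a standard YAP target, was at 200, 247 and 253 against 502, 749 and 613 (-1.40, SE 0.128). In the shARID1A.4 comparison 18 of the 21 were lower and the other 3 did not pass, with 11 lower in both. Among 9 AP-1 factors 6 were lower and 1 higher. JUN fell by 0.97 and ATF3 by 0.95 on the log2 scale, and neither passed in the shARID1A.4 comparison.

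Receptors and ligands of growth factor and endothelin signalling were lower in 15 and higher in 5 of 30, with a median of -0.46, and 12 of the 15 were lower in the shARID1A.4 comparison too. Besides RET, NGFR (the p75 neurotrophin receptor), HGF and FGFR1 fell, by 1.59, 1.24 and 0.93 on the log2 scale. NGFR was at 49.9, 67.0 and 54.6 against 154, 168 and 199. EGFR went the other way, at 778, 703 and 746 against 383, 418 and 361 (0.94, SE 0.063), and was lower in the shARID1A.4 comparison (-0.69).

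Adrenergic regulators, the transcription factors that hold the sympathetic identity, were lower in 8 and higher in 5 of 19. GATA2 was at 5760, 5272 and 5629 against 9809, 10348 and 10205, a log2 difference of -0.87 (SE 0.031), and -0.74 in the shARID1A.4 comparison. HAND2, TBX2, KLF7, KLF13, EYA1 and ZNF536 were lower too, by 0.14 to 0.54 on the log2 scale. SATB1, TFAP2B, DACH1 and GATA3 were higher, by 0.69, 0.54, 0.51 and 0.16, of which DACH1 lost its call with DESeq2 (adjusted p = 0.0594). MYCN, the amplified oncogene of the line, was at 94497, 90242 and 95144 against 84499, 86206 and 84726, higher by 0.13 (SE 0.029, adjusted p = 0.000438 in limma). In the shARID1A.4 comparison MYCN was higher by 0.94 (adjusted p = 1.87e-18 in limma). Against the control its difference was -0.63 in shARID1B.2 and 0.36 in shARID1B.3. ISL1 and PHOX2A did not pass in the pair, at -0.03 and 0.08. In the shARID1A.4 comparison 5 of the lower and 2 of the higher regulators were called the same way. Another 3 were called the other way, among them TBX2 (0.42) and SATB1 (-0.31). Genes of catecholamine handling and secretory granules were higher in 10 (43.5%) and lower in 7 (30.4%) of 23, against 27.1% and 26.4% of all genes tested. MAOA and SYT1, the synaptic calcium sensor, were higher, and SLC18A1, a vesicular monoamine transporter, and CHGB were lower, by 1.12 and 0.51 on the log2 scale. In the shARID1A.4 comparison SLC18A1 was lower too and CHGB was higher by 0.71, and MAOA and SYT1 did not pass.

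Other subunits of the SWI/SNF complexes were next. Of 28 tested, 11 were higher and 6 lower, with log2 differences between -0.57 and 0.71. ACTL6B, a subunit of neuronal BAF complexes, and BCL11B were higher by 0.71 and 0.66, and SS18 by 0.53. SMARCD3, BCL7B, SMARCA2, SMARCC2, DPF2, BRD9, BCL11A and SMARCE1 made up the other higher genes, at 0.10 to 0.43. DPF1, DPF3, SMARCB1, SMARCC1, SS18L1 and SMARCD1 were lower, by 0.57, 0.52, 0.26, 0.22, 0.18 and 0.17 on the log2 scale. SMARCA4, the main ATPase, did not pass (0.02, adjusted p = 0.589 in limma). In the shARID1A.4 comparison 3 of the higher and 4 of the lower subunits were called the same way. Another 4 were called the other way, among them BCL11B (-0.44) and SMARCD3 (-0.34).

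Interferon-stimulated genes were higher in 11 and lower in 3 of 22, with a median of 0.46. IRF9, the DNA-binding subunit of the ISGF3 factor, was at 578, 528 and 559 against 362, 356 and 362 (0.62, SE 0.098, adjusted p = 7.53e-06 in limma). DDX60, BST2 and STAT2 rose by 0.78, 0.65 and 0.25, and OAS3 fell by 0.79 on the log2 scale. The 4 rises over 1 log2 unit were in IFIT1, IFI6, MX2 and IFI44L, which had means over the 6 libraries below 100 and were named after their values were seen. In the shARID1A.4 comparison 1 of these genes was higher and 15 were lower, with a median of -0.47, and IRF9 was lower there by 0.64 (adjusted p = 5.15e-06). MHC class I genes were higher in 7 and lower in 1 of 12. TAPBP, the peptide-loading chaperone tapasin, rose by 0.93 and HLA-E by 0.85, though reads of HLA genes can be shared between close copies. In the shARID1A.4 comparison 1 MHC class I gene was higher and 3 were lower, with a median of -0.07. There TAPBP was higher by 0.26 and HLA-E did not pass (-0.05, adjusted p = 0.488 in limma).

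**Figure D4:**
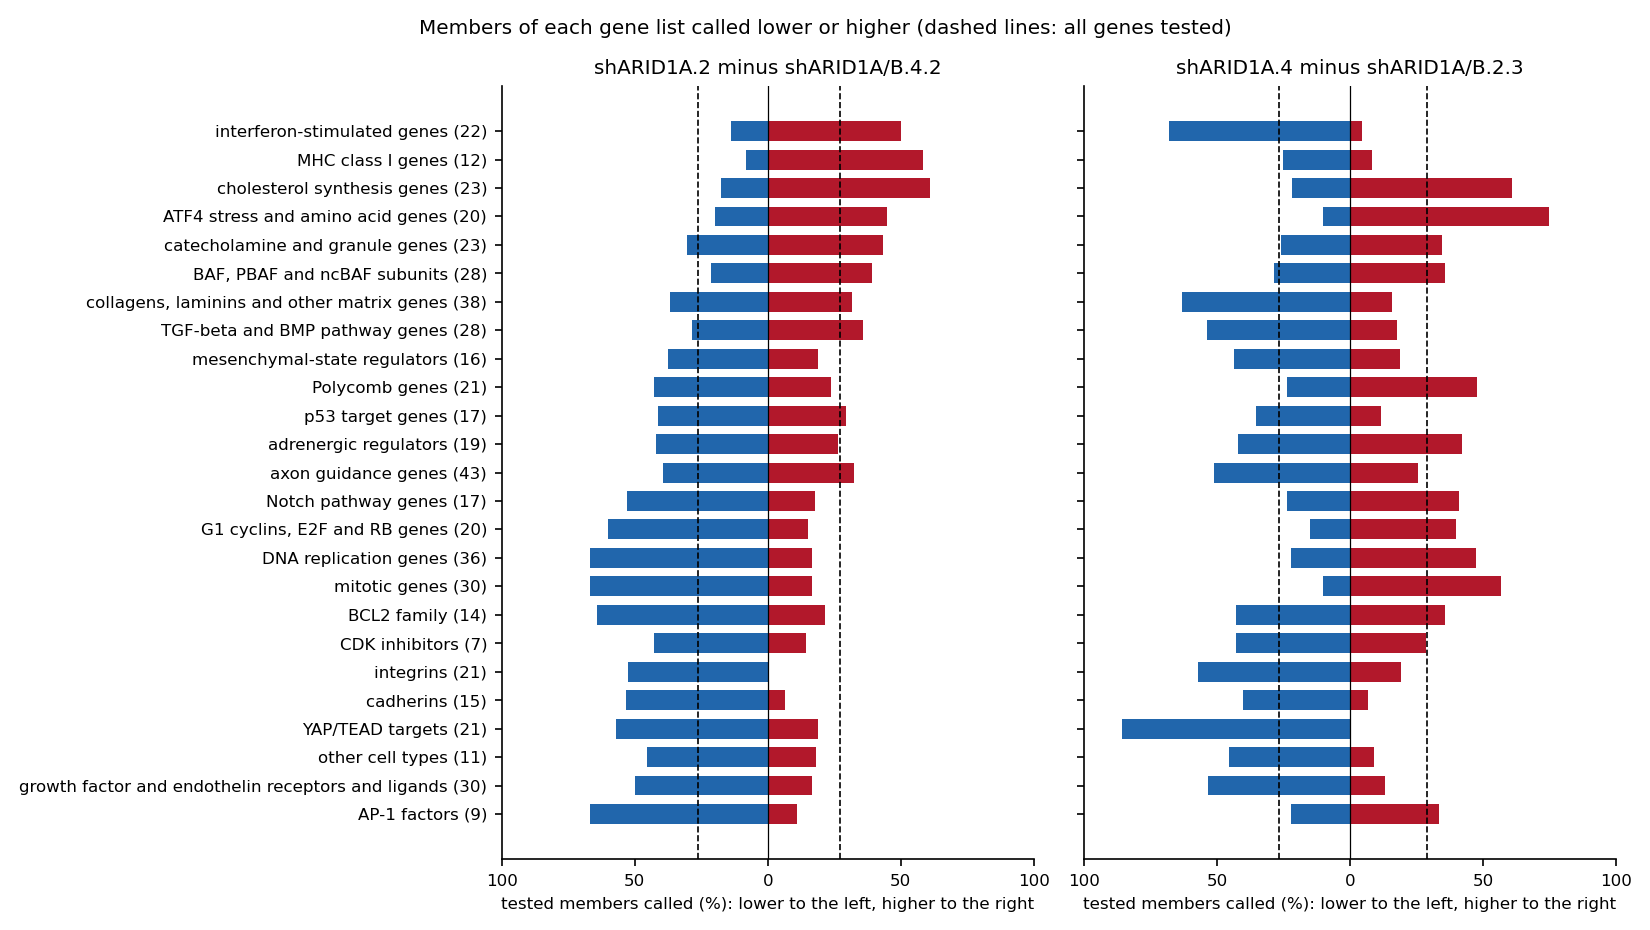
Percentage of tested members of each of 25 gene lists called lower (blue, to the left) or higher (red, to the right), in the pair on the left and in the shARID1A.4 comparison on the right, with lists ordered by their median log2 difference in the pair and the number tested in brackets. Dashed lines mark all 18582 genes, 26.4% lower and 27.1% higher in the pair. Replication, mitotic and interferon-stimulated genes lean to opposite sides in the panels.

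**Figure D5:**
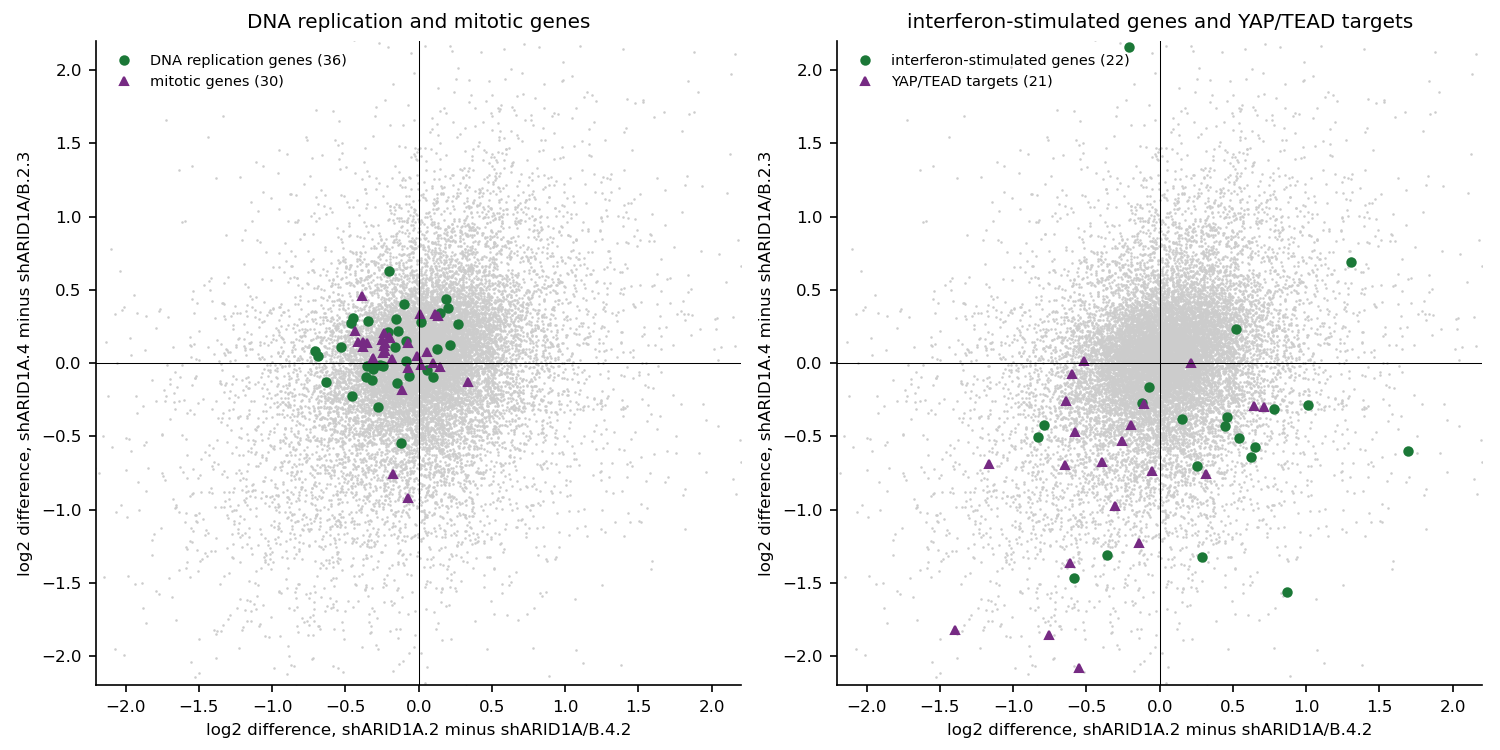
Log2 difference of each gene in the pair (x axis) against the shARID1A.4 comparison (y axis), with all genes in grey. On the left, DNA replication and mitotic genes lie mostly left of 0 on the x axis, with medians of -0.18 and -0.19, and above 0 on the y axis, with medians of 0.09 and 0.11. On the right, YAP/TEAD targets lie mostly in the lower left, and interferon-stimulated genes mostly right of 0 and below 0; 191 genes, of which 1 is interferon-stimulated, lie outside the axes.

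Metabolic and stress genes also moved. Of 23 cholesterol synthesis genes, 14 were higher and 4 lower, with a median of 0.14, and 11 were higher in the shARID1A.4 comparison too. TM7SF2, DHCR7 and INSIG1 rose by 0.62, 0.37 and 0.36, and MSMO1 fell by 0.56 on the log2 scale. In the mean of both shARID1B conditions, by contrast, 18 of these genes were lower and 2 higher than in the control. Genes controlled by ATF4, the factor of the integrated stress response, were higher in 9 and lower in 4 of 20. DDIT4, an inhibitor of mTORC1, was at 11131, 10774 and 10975 against 5918, 5830 and 5907 (0.90, SE 0.026), and 8 of the 9 rose in the shARID1A.4 comparison. The 4 that fell were SLC7A5, SLC7A11 and SLC3A2, which carry amino acids, and GPT2.

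In the BCL2 family of cell death regulators, 9 of 14 were lower and 3 higher, with a median of -0.25, and in the shARID1A.4 comparison 6 were lower and 5 higher. MCL1, an anti-apoptotic member, fell by 0.45 on the log2 scale in the pair and by 0.76 in the shARID1A.4 comparison, and the pro-apoptotic HRK fell by 1.18 in the pair. BBC3, which encodes PUMA, rose by 1.05 in the pair and by 0.83 in the shARID1A.4 comparison. Genes known as p53 targets, in a line that lacks functional p53, were higher in 5 (29.4%) and lower in 7 (41.2%) of 17. The shares over all genes tested were 27.1% and 26.4%.

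Signalling and Polycomb genes gave mixed counts, beside 27.1% higher and 26.4% lower among all genes tested. Axon guidance genes were higher in 14 (32.6%) and lower in 17 (39.5%) of 43. SEMA3E and EFNA1 rose by 0.96 and 0.82, and EFNB1, PLXNA1 and NRP1 fell by 1.08, 0.99 and 0.85 on the log2 scale. Notch pathway genes were lower in 9 and higher in 3 of 17, with HES6 and HES1 lower by 0.87 and 0.65 and MAML3 higher by 0.83. TGF-beta and BMP genes were higher in 10 (35.7%) and lower in 8 (28.6%) of 28, and BMP2 and TGFB2 fell by 1.56 and 1.17. Polycomb genes were lower in 9 and higher in 5 of 21, with CBX6 lower by 0.80 and EZH2 by 0.18 on the log2 scale. In the shARID1A.4 comparison 10 Polycomb genes were higher and 5 lower, as were 7 and 4 Notch pathway genes. TGF-beta and BMP genes were higher in 5 and lower in 15 there, and axon guidance genes in 11 and 22. CBX6 (0.51), EZH2 (0.09) and HES1 (0.50) were higher there and SEMA3E was lower (-1.26). EFNB1, PLXNA1, NRP1, BMP2 and TGFB2 were lower in both comparisons, and EFNA1, HES6 and MAML3 did not pass. In the list of other cell types, DCN rose by 0.90 and LUM fell by 0.89.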

How the data were processed

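RNA-Seq of SK-N-BE(2) cells in 21 libraries was analysed from the authors' gene table. Per the labels, libraries were made with a stranded mRNA kit, and the submitters' processing notes name STAR 2.5.3a, RSEM 1.3.0, DESeq2 1.26.0 and GRCh38, with no role or order; the annotation and the strand setting are not given in the sources used here. The deposited signal is the reads on a gene divided by 1 size factor per library (0.8409 to 1.2945) for 60728 gene identifiers, and whole reads came back for 100% of values, within 0.007 read, at 27954334 to 41077638 reads per library. A further 3 deposited tables hold fold changes and p-values that the authors computed against the control, and none of these was used.

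Deposited values were put on a log2 scale after adding 1 and fitted with limma 3.58.1 (trended variance) over the 21 libraries in 7 conditions, after the expression filter of edgeR 4.0.16 on recovered reads. The filter kept 18584 genes, of which 18582 remained without ARID1A and ARID1B. Genes were called at a Benjamini-Hochberg adjusted p below 0.05. Log2 differences on this scale understate the change of low genes. Coordinates are from GENCODE 29, matched by identifier without version for 58541 identifiers, and the promoter sequences are from RefSeq. The fit was checked on simulated reads. R 4.3.3 and Python were used, with DESeq2 1.42.0 on recovered reads as an alternative.

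The pair of conditions, the 25 gene lists and the tests were chosen with earlier results of these data known. Named genes are the 12 protein-coding genes with the largest difference each way among called genes with a mean of at least 100 and no overlap between libraries, up to 4 called members of each list each way at the same mean, and all called SWI/SNF subunits, integrins, cyclins and adrenergic regulators; a few genes that the rule names are not reported here. Replicate numbers did not pair the libraries. Alternatives were other tests, scalings, pseudocounts, filters, the compared libraries alone, the replicate number as a block, 1 shARID1B condition at a time and each library left out.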

Additional observations from a re-analysis of the deposited data

Results flagged for a closer look

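The pair's difference departed from the mean difference of shARID1B.2 and shARID1B.3 against the control in 8607 genes, by a test of the difference itself in limma. Among the 12 largest rises the pair's difference minus the shARID1B difference, in log2 units, was above 0 for SPOCK2 (1.93), PRLR (1.25), GLI1 (0.86), SIX2 (1.04), LAYN (2.40), LRRTM2 (1.46), MAOA (0.68), MPPED2 (1.97), DLG4 (0.64), MAP7 (1.004) and P3H2 (1.24). LAYN and MPPED2 were lower in the mean of both shARID1B conditions than in the control. Among the 12 largest falls the value was below 0 for EPPK1 (-1.20), DLK1 (-1.02), NFAM1 (-2.12), CIAO2B (-1.08), RET (-0.25), NPTX2 (-0.69), BEGAIN (-0.97), BRI3BP (-0.79), ABCC9 (-0.79), STC1 (-1.20) and EPAS1 (-1.27), and above 0 for AQP1 (0.73). These genes were ranked on the pair's difference, which favours such departures, so the values are a description. They also depend on the shARID1B condition: PRLR, SIX2, MAOA, CIAO2B, RET, BRI3BP and STC1 differed by more in shARID1B.2 than in the pair, and AQP1 by more in shARID1B.3.

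All 3 libraries of shARID1A.2 lay on the opposite side of their partners from all 3 libraries of shARID1A.4 for 7 of the 24 genes, and for 14.9% of all genes tested (24.5% of the genes whose libraries did not overlap in the pair). The log2 difference between shARID1A.4 and shARID1A/B.2.3 was -0.75 for PRLR, -0.28 for LAYN, -0.22 for LRRTM2, -0.36 for MPPED2 and -0.073 for MAP7, which all rose in the pair. It was 0.094 for CIAO2B and 0.46 for EPAS1, which fell in the pair. MAP7 and CIAO2B were not called in that comparison. The difference between the pairs of conditions was not tested, since differences between shRNAs entered the choice of the pair.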

How the results depend on the processing

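Counts of genes called higher or lower, of those over 1 log2 unit, of those shared with the other comparisons and of those that departed from the shARID1B difference stayed within 1.5 times the reported value in 145 of 147 recomputed values. The exceptions came from requiring at least 10 reads in each library compared, which tests fewer genes and gave 256 genes higher and 310 lower by over 1 log2 unit. These 2 counts also moved, within that bound, to 646 and 707 with no filter on low values. With a pseudocount of 5 they were 301 and 365, so they depend on how low genes are treated. With 1 library left out in turn, the ranges were 4597 to 4806 higher, 4560 to 4675 lower, 407 to 458 higher and 500 to 556 lower by over 1 log2 unit, 4058 to 4192 shared with the shARID1A.4 comparison, 5621 to 5950 shared with shARID1B and 8051 to 8531 that departed from it. The replicate block gave 5020 higher and 4897 lower genes; same-numbered libraries of the pair correlated at -0.14, 0.01 and 0.08, so the numbers are only names. With edgeR 10263 genes were called, including 97.6% of the genes called by limma in the same direction, and with DESeq2 9319, including 92.9%. The share of higher genes among calls was 48.1% to 54.1% over the scalings, against 50.7%. Sharing with shARID1B was 6713 genes with only shARID1B.2 and 4455 with only shARID1B.3. Of the named genes, CDKN1A lost its call in 10 settings (log2 difference with 1 library left out, -0.47 to -0.25), DACH1 in 6 (0.35 to 0.69) and BCL11A in 2 (0.10 to 0.12). Uncalled genes near 0 changed sign: EVL was at 0.015 with upper-quartile scaling and at -0.034 to 0.009 with 1 library left out, and SMARCA4 at -0.002 to 0.042. PHOX2A passed in 4 settings. The causes were not tested.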

Other observations

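DLK1 and BEGAIN, both among the 12 largest falls, lie on chromosome 14 in the imprinted DLK1-MEG3 region, which was looked at after these values were seen. Of 11 tested genes with a mean of at least 100 between 500 kilobases before BEGAIN and 500 kilobases after DLK1, 9 were lower in shARID1A.2 than in shARID1A/B.4.2, where 26.4% of all genes were called lower. BEGAIN and DLK1 set the region, and of the other 9 genes 7 were lower. The log2 differences were -2.09 for BEGAIN (100537147 to 100587413), -2.53 for DLK1 (100725705 to 100738224), -0.90 for the non-coding MEG3 (100779410 to 100861031), -1.67 for RTL1, -1.19 for MEG8 and -1.01 for MEG9. On the side of BEGAIN, WDR25, WARS1 and SLC25A29 were at -0.57, -0.38 and -0.33, and EVL and YY1 did not pass, at -0.005 (adjusted p = 0.896) and 0.02 (adjusted p = 0.477). Between shARID1A.4 and shARID1A/B.2.3, MEG3, MEG8 and MEG9 were lower by 0.95, 0.95 and 0.91, and RTL1 did not pass (-0.31, adjusted p = 0.0656). RTL1 overlaps MEG8, and WDR25 overlaps WARS1; whether strand was used in counting is not given, so reads of these genes may be split between them.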
